A study of Mus musculus with 52 samples.

Results

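The 7 genes described here encode the transcription factor Xbp1, the stress sensors of the endoplasmic reticulum (ER) and the proteases that release one class of them: Xbp1, Ern1, Eif2ak3, Atf6, Atf6b, Mbtps1 and Mbtps2. They were chosen by symbol for their known roles, and are 7 of the 22417 genes in each of 2 deposited tables. Ribosome footprints (fragments of mRNA shielded by ribosomes, a measure of translation) and mRNA were measured in an ER and a cytosol fraction of mouse embryonic fibroblasts. Every group shared the genotype CReP+/-; GADD34+/+ (WT), that is, heterozygous at CReP with GADD34 intact. Both proteins guide a phosphatase that removes the phosphate from eIF2 alpha, a factor needed to start translation. One series exposed cells to thapsigargin (Tg), which blocks the calcium pump of the ER, for 0.5, 1, 2 or 4 h. The other used dithiothreitol (DTT), a reductant of disulfide bonds, for 30 min with 0, 10 or 20 min of recovery. Untreated cells served both series.

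When unfolded proteins build up in the ER, 3 kinds of sensor in its membrane signal to the rest of the cell, a program called the unfolded protein response. IRE1 alpha, the product of Ern1, cuts an intron out of Xbp1 mRNA, after which the mRNA encodes the active transcription factor. PERK, the product of Eif2ak3, phosphorylates eIF2 alpha, which lowers most translation and favours a few mRNAs such as Atf4. Atf6 and its relative Atf6b travel from the ER to the Golgi, where the site-1 protease (Mbtps1) and the site-2 protease (Mbtps2) cut them free to act in the nucleus.

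The 52 labelled samples form 26 groups with 2 replicates each, but each table gives 1 pooled score per gene and group. No spread between replicates could be had, so no difference below was tested, and the depth behind the scores is unknown. Differences are in log2(score + 1), and a gene counts as over 2-fold when the difference exceeds 1 in size. Such counts are read beside the share of all genes past the same fold, in either direction where none is named. Scores of different genes are otherwise not compared, since a correction for gene length is not stated. The exceptions are the marker sums, cuts at a score of 1 and rankings by mean level, which may depend on gene length. All 8 fibroblast markers had ER footprint scores, which summed to 2177 after 4 h of Tg and to 6271 in untreated cells. S100a4 held 552 and 3653 of these, and the other 7 summed to 1624 after 4 h of Tg and to 2618 in untreated cells. Of 14 markers of other cell types in the table, 11 were blank or under 1 in untreated ER footprints, among them Ptprc, Pecam1 and Krt8, which were blank. Those above 1 were Acta2, the neural marker Tubb3 and the leukocyte marker Cd68. Tubb3 scored 16.6 in untreated cells and 23.6 after 4 h of Tg, and Cd68 scored 1.16 in untreated cells. The 14 summed to 385 after 4 h of Tg and to 519 in untreated cells, and Acta2, a smooth muscle actin that many cultured fibroblasts also make, held 359 and 499 of these. In bulk fractions such as these, fewer cells of a type and less RNA per cell cannot be told apart.

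All 7 members matched a RefSeq gene by accession, on chromosomes 11 (Xbp1 and Ern1), 6 (Eif2ak3), 1 (Atf6), 17 (Atf6b), 8 (Mbtps1) and X (Mbtps2). Of these, 6 had an entry in the RefSeq promoter table, build GRCm38.p6, and Atf6 had none. The window of 250 bases upstream of the start site was searched on both strands for motifs linked to this response. The ER stress response element (CCAAT and CCACG parted by 9 bases) is known as a binding site of ATF6 with the factor NF-Y, and lay in 0.113% of 32851 mouse promoters of the same length. Its second form (ATTGG and CCACG parted by 1 base) lay in 0.0304% of them. Neither was found in these windows of the 6 members. The core ACGT, shared by unfolded protein response elements and many other sites, lay in 26.9% of all promoters and in those of Xbp1 and Atf6b only among the 6. The CCAAT box, with no partner required, lay in 33.8% of all promoters. Eif2ak3 held 6 of them and Atf6b held 1. The upstream windows with the core are shown because Xbp1 and Atf6b are the 2 members that hold it, and their footprints differ below. Both are on the plus strand, and capitals mark ACGT, 31 bases before the start site in Xbp1 (chr11:5520391-5520640) and 47 before it in Atf6b (chr17:34646896-34647145).
Xbp1: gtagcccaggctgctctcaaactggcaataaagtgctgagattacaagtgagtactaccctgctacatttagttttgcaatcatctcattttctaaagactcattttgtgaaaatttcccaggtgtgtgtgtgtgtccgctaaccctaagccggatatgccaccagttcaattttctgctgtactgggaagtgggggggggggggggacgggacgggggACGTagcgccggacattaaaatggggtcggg
Atf6b: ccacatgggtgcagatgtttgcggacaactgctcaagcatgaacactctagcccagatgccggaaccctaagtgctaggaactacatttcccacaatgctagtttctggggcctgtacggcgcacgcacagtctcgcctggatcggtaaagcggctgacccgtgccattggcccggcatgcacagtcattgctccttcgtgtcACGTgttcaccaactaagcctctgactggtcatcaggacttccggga
A match to these letters is a description of the sequence and no evidence of binding.

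At 4 h of Tg, Xbp1 footprints in the ER stood further above untreated cells than those of any other member. In the cytosol they stood further above than those of any other member with an untreated value there. Xbp1 passed 2-fold in the cytosol before the ER. Its cytosol footprint score was 11.5 in untreated cells and 24.5, 52.7, 96.1 and 96.9 after 0.5, 1, 2 and 4 h of Tg. In the ER it scored 22.2 without Tg and 15.4, 26.4, 69.2 and 80.3 over the same course. The cytosol score was thus already over 2-fold higher at 0.5 h, whereas the ER score was below its untreated value then and over 2-fold higher only at 2 and 4 h. Against untreated cells, the cytosol differences were 1.04, 2.11, 2.96 and 2.97 in log2, and the ER differences were -0.50, 0.24, 1.60 and 1.81. Relative to the median gene, the cytosol difference at 0.5 h was 0.80, short of 2-fold. At 4 h the cytosol difference exceeded that of 99.9% of 10278 genes and the ER difference that of 99.3% of 11704. Summed over both fractions, Xbp1 scored 177 after 4 h of Tg against 33.6 in untreated cells, a ratio of 5.15. Most of that difference was in place by 2 h, when the sum was 165. From 2 h on, the sum at 4 h stood 0.10 higher in log2, close to the median of all genes over that interval, 0.02.

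The 2 tables hold 1 row for Xbp1, under a single RefSeq accession. Footprints of the spliced and the unspliced mRNA, which share most of their sequence, are therefore summed or taken from one form, and cannot be told apart here.

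**Figure D1:**
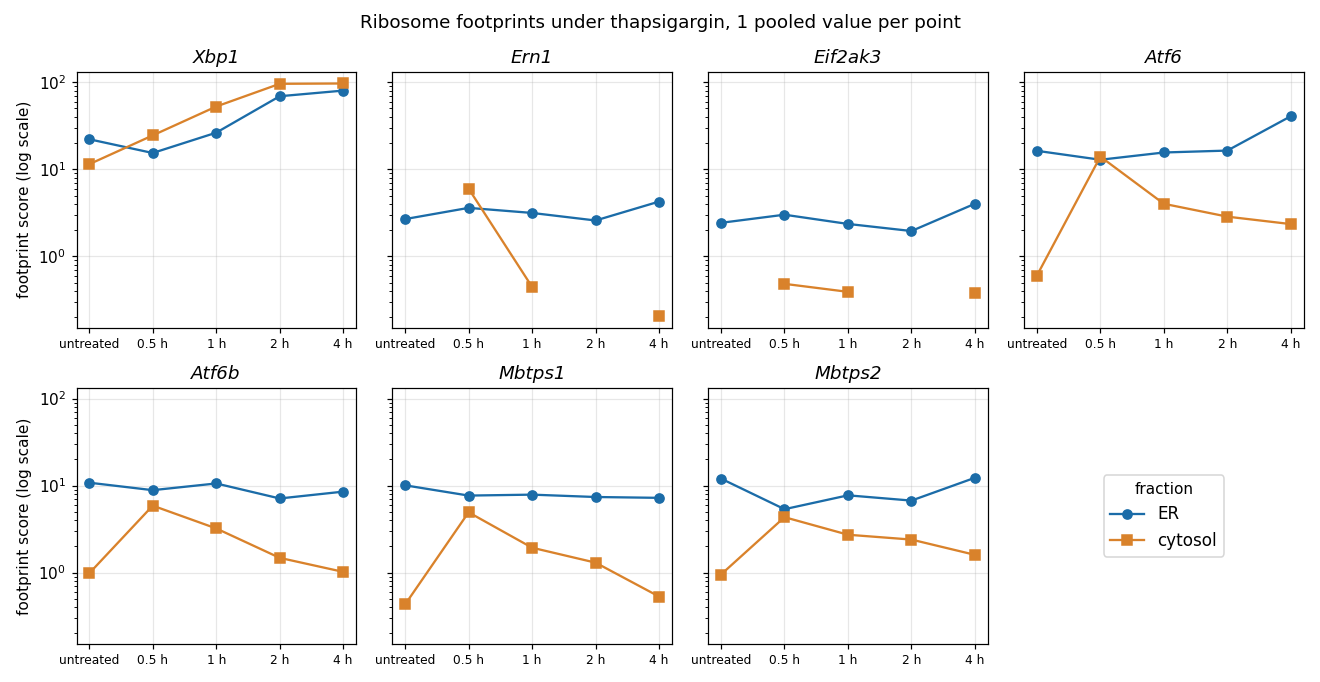
Footprint scores (log scale) of the 7 genes in the ER fraction (blue circles) and the cytosol fraction (orange squares), in untreated cells and after 0.5, 1, 2 and 4 h of Tg, with 1 pooled value per point and blanks left out. Xbp1 climbs in both fractions, Atf6 stands apart in the ER at 4 h, and 6 of the 7 have a cytosol peak at 0.5 h.

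Ern1 and Eif2ak3, the kinase sensors, stayed within 2-fold of untreated cells in the ER at every time of Tg. Ern1, which encodes IRE1 alpha, scored 2.68 in untreated ER and 3.61, 3.15, 2.58 and 4.26 after 0.5, 1, 2 and 4 h of Tg. Eif2ak3, which encodes PERK, scored 2.43 in untreated ER and 3.01, 2.36, 1.96 and 4.03 at those times. Both stood highest at 4 h, at 0.51 (Ern1) and 0.55 (Eif2ak3) in log2 above untreated cells, short of 2-fold. In the cytosol both were blank in untreated cells and at 2 h. Ern1 scored 6.0 there at 0.5 h, 0.446 at 1 h and 0.207 at 4 h, and Eif2ak3 scored 0.483, 0.391 and 0.383. A fold against a blank cannot be given, since the meaning of blanks is not stated.

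Low scores of this size move in coarse steps. Among 1037 genes with ER footprint scores under 1 both in untreated cells and at 0.5 h of Tg, a few exact ratios between the 2 groups recurred, the commonest being 0.3602, shared by 29 genes. The scores of Ern1 and Eif2ak3 in the cytosol under Tg lie in this low range, except that of Ern1 at 0.5 h. So do the untreated cytosol scores of Atf6 (0.601), Atf6b (0.982), Mbtps1 (0.431) and Mbtps2 (0.951). Cytosol differences and densities, ER shares and counts that set these genes against untreated cells rest on those low scores.

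The membrane-bound factors Atf6 and Atf6b differed from each other at 4 h. Atf6 ER footprints scored 16.3 in untreated cells and 12.9, 15.6, 16.4 and 40.8 after 0.5, 1, 2 and 4 h of Tg. Atf6b scored 10.8 in untreated ER and 8.86, 10.6, 7.11 and 8.52 at those times. Atf6 was thus within 2-fold of untreated cells until 2 h and 1.27 above them at 4 h, higher than 97.5% of genes, while Atf6b stood at -0.31. The step fell between the last 2 times, with Atf6 1.26 higher at 4 h than at 2 h in the ER, above 99.6% of 10981 genes. Atf6 summed over both fractions scored 43.1 after 4 h of Tg against 16.9 in untreated cells, a log2 difference of 1.30, and Atf6b stood at -0.28 in its sum.

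The proteases that cut Atf6 and Atf6b did not share the Atf6 difference at 4 h. Mbtps1, the site-1 protease, scored 10.1 in untreated ER and 7.68, 7.87, 7.39 and 7.23 after 0.5, 1, 2 and 4 h of Tg. Mbtps2, the site-2 protease, scored 12 in untreated ER and 5.35, 7.73, 6.72 and 12.3 at those times. Mbtps1 thus stayed between -0.32 and -0.43 in log2 at every time. Mbtps2 was over 2-fold lower at 0.5 h, at -1.04 (-0.86 relative to the median gene), and stood at 0.03 at 4 h. Their summed footprints at 4 h stood at -0.39 for Mbtps1 and 0.09 for Mbtps2.

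In ER footprints after 0.5 h of Tg, 1 of the 7 members was over 2-fold lower (Mbtps2), where 18.6% of all genes were past that fold in either direction. After 1 h it was 0 of 7 (12.1% of all genes), after 2 h 1 of 7, Xbp1 (11.3%), and after 4 h 2 of 7, Xbp1 and Atf6 (7.4%). These shares too count both directions, and at 4 h 589 of 11704 genes were higher and 277 lower. In the cytosol, 5 members had a value in untreated cells, and all 5 were over 2-fold higher after 0.5 h of Tg. Of all genes, 18% were past that fold in either direction, with 1704 of 9686 higher. Genes over 2-fold higher in the ER than in the cytosol were 11.8% of all in untreated cells and 1.5% at 0.5 h. What part this general difference has in the count of members was not tested. After 1 h 4 of 5 members were over 2-fold higher, all but Mbtps2 (17% of all genes). Of these, Atf6b and Mbtps1 stood at 0.99 and 0.93 relative to the median gene. After 2 h it was Xbp1 and Atf6 (12.8%), and after 4 h the same pair (7.14%). With a pseudocount of 0.1, Mbtps2 was past the fold at 1 h (1.43) and 2 h (1.25), and Mbtps1 at 2 h (1.40). The sum of both fractions gave 0 of 5 members at 0.5 h (8.36% of all genes), Xbp1 alone at 1 h (9.14%) and 2 h (9.48%), and Xbp1 and Atf6 at 4 h (6.3%). Averaged over the fractions instead, the Atf6 difference at 0.5 h was 1.45, against 0.64 in the sum.

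**Figure D2:**
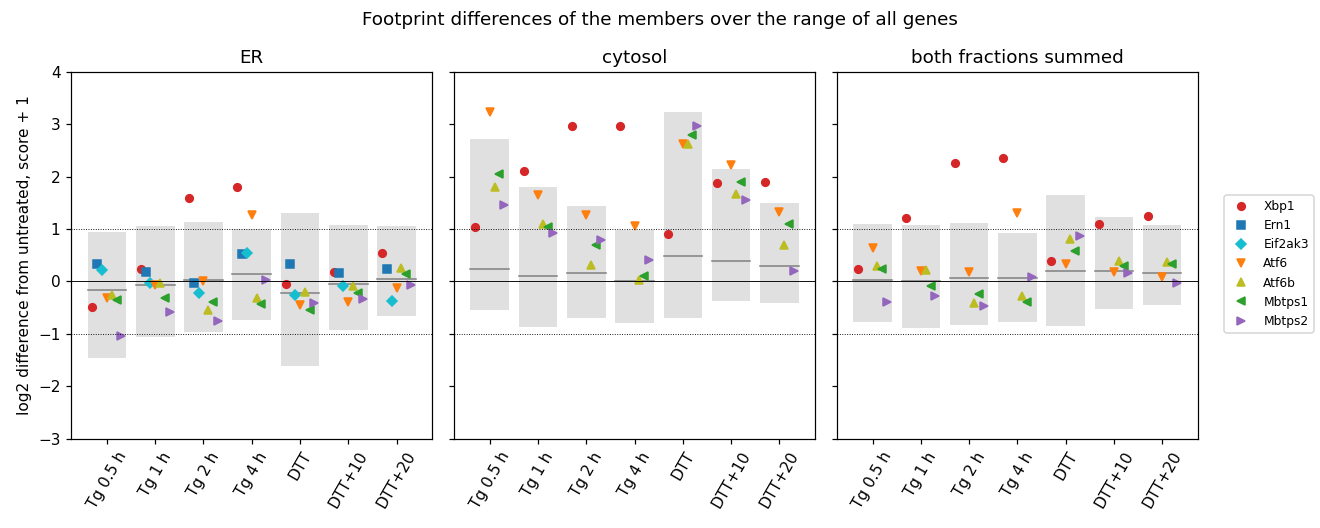
Log2 differences from untreated cells in footprint score + 1 for the members (coloured points), in the ER, the cytosol and their sum, at 4 times of Tg and after DTT with 0, 10 (DTT+10) and 20 min (DTT+20) of recovery. Grey bars span the 5th to 95th percentile of all genes, grey lines their median, and dotted lines 2-fold; Xbp1 lies above the bars at 2 and 4 h of Tg in each panel.

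After DTT, Xbp1 footprints stood further above untreated cells as recovery went on. Its cytosol footprints scored 12.1 in untreated cells, 23.4 after 30 min of DTT, and 47.3 and 48.0 after 10 and 20 min of recovery. Its ER footprints scored 20.2 in untreated cells, 19.4 after DTT, and 23 and 30.1 in recovery. After DTT the cytosol difference was 0.90 in log2, above that of 66.4% of genes, whose median was 0.49. The ER score was near its untreated value then, and 0.55 above it in log2 after 20 min of recovery, short of 2-fold. After DTT the ER difference minus the cytosol difference was -0.95, against a median of -0.63 over all genes. The sum stood at 0.39 above untreated cells after 30 min of DTT, at 1.10 after 10 min of recovery and at 1.25 after 20 min. Relative to the median gene these were 0.19, 0.89 and 1.08, so that the value after 10 min fell short of 2-fold. These last differences exceeded those of 93.2% and 96.8% of genes, while after DTT itself Xbp1 was above only 59.4%. The untreated scores of the DTT table are those of the Tg table multiplied by constants, 0.913 in the ER and 1.06 in the cytosol, so both series are set against the same untreated data.

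The sensors and proteases followed another course after DTT. Atf6 scored 9.13, Atf6b 11.5, Mbtps1 9.06 and Mbtps2 14.6 in the cytosol after 30 min of DTT, against 0.635, 1.04, 0.455 and 1.00 in untreated cells. After 20 min of recovery their cytosol scores were 3.10, 2.31, 2.11 and 1.30. Each was thus high in the cytosol after DTT and lower after recovery, the reverse of Xbp1. Eif2ak3 scored 3.89 after DTT, 1.21 after 10 min and 0.606 after 20 min of recovery in the cytosol, and was blank in untreated cells. Ern1 scored 1.93, 0.517 and 0.553 at those times and was blank in untreated cells too.

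In ER footprints after 30 min of DTT, 0 of 7 members were over 2-fold from untreated cells, where 27.5% of all genes were. In the cytosol, 31.7% of all genes were past that fold in either direction. There 4 of 5 members with a value were over 2-fold higher, all but Xbp1 at 0.90. In the sum 0 of 5 were (19.3% of all genes), whereas averaging each gene's ER and cytosol differences put Atf6, Atf6b, Mbtps1 and Mbtps2 between 1.09 and 1.27. When cells after 20 min of recovery were set against cells after DTT, 0 of 7 members passed the fold in the ER (21.5% of all genes). In the cytosol 5 of 7 were over 2-fold lower, Xbp1 was higher at 1.01 and Ern1 stood at -0.91 (21.6% of all genes). The Xbp1 difference exceeded that of 98.8% of 10431 genes, and those of the 5 lower members lay between -1.30 and -2.76. In the sum, Eif2ak3 was over 2-fold lower at -1.09 (-0.86 as the mean of both fractions) and the other 6 were within 2-fold (7.4% of all genes), of which Mbtps2 stood at -1.20 as the mean of both fractions.

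**Figure D3:**
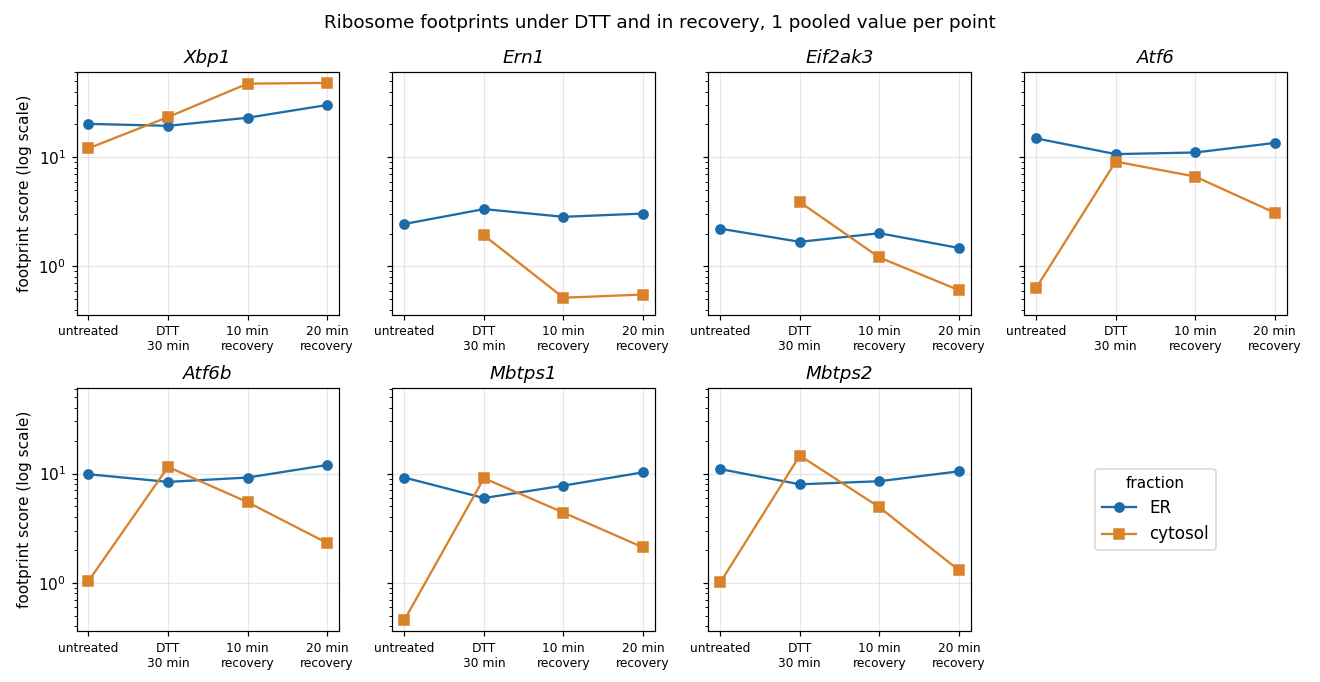
Footprint scores (log scale) of the 7 genes in the ER fraction (blue circles) and the cytosol fraction (orange squares), in untreated cells, after 30 min of DTT, and after 10 and 20 min of recovery, with 1 pooled value per point and blanks left out. Xbp1 climbs in the cytosol through recovery, while the other 6 genes are highest in the cytosol after DTT.

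The part of the footprints found in the ER fraction separated Xbp1 from the membrane proteins. It is taken from the scores as scaled by the authors, and its level depends on the scaling of 1 fraction against the other. In untreated cells of the Tg table the ER share was 65.9% for Xbp1, 96.4% for Atf6, 91.7% for Atf6b, 95.9% for Mbtps1 and 92.7% for Mbtps2, with a median of 40.2% over all genes. The last 4 encode proteins that cross the ER membrane, while the protein made from unspliced Xbp1 mRNA is known to tether that mRNA to the membrane as it emerges. Under 0.5, 1, 2 and 4 h of Tg the share of Xbp1 was 38.6, 33.4, 41.9 and 45.3%. The median over all genes was 35.6, 42.4, 42.1 and 46.4% in the same order. The share of Atf6 was 47.9, 79.5, 85.2 and 94.6% at those times. The Atf6 share was thus low at 0.5 h and back near its untreated value at 4 h, and the Xbp1 share was not. Atf6b (60.1%), Mbtps1 (60.9%) and Mbtps2 (55.3%) had their lowest shares at 0.5 h too, and stood between 88.5 and 93.2% at 4 h. Ern1 stood at 37.6% at 0.5 h, just below Xbp1.

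The low shares at 0.5 h were not particular to these genes. Setting ER against cytosol at 0.5 h of Tg, 1.5% of all genes had an ER score over 2-fold higher, compared with 11.8% in untreated cells, and after 30 min of DTT it was 1.34%. Over genes above the median level these shares were 0.449% at 0.5 h of Tg and 0.577% after DTT. What part this general difference has in the members' shares was not tested. Of the members, 4 of 5 with a value were over 2-fold higher in the ER in untreated cells, Xbp1 standing at 0.90. At 0.5 h of Tg this held for 1 of 7, Eif2ak3, though relative to the median gene Atf6b (1.25) and Mbtps1 (1.28) were past the fold too. It held for 6 of 7 at 1 h (12.5% of all genes), 4 of 5 at 2 h (10.5%) and 6 of 7 at 4 h (14.4%), with Xbp1 the exception each time. After 30 min of DTT it held for 0 of 7, though relative to the median gene Ern1 (1.68) and Atf6 (1.31) were past the fold. After 10 min of recovery it held for Ern1 alone (9.68% of all genes), and Xbp1 was over 2-fold lower in the ER, at -1.01. Relative to the median gene Xbp1 was at -0.07 there, and Eif2ak3, Atf6, Atf6b, Mbtps1 and Mbtps2 lay between 1.38 and 1.63. After 20 min of recovery it held for 5 of 7, all but Xbp1 and Eif2ak3 (12.6%), and Eif2ak3 was at 1.38 relative to the median gene.

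At 4 h the ER and cytosol differences of Xbp1 were furthest apart among the 5 members with values. Its ER difference was 1.16 below its cytosol difference (an ER shift of -1.16), and 2.66% of 10126 genes had a lower shift. The 5th to 95th percentile of all genes ran from -0.82 to 0.81, with a median of 0.17. The shift was 0.21 for Atf6, -0.34 for Atf6b, -0.52 for Mbtps1 and -0.38 for Mbtps2. In the DTT table the Xbp1 ER share was 62.6% in untreated cells, 45.4% after DTT, and 32.8 and 38.6% after 10 and 20 min of recovery. That of Mbtps2 was 91.6% in untreated cells, 35.3% after DTT, and 63.4 and 89.0% in recovery, and Mbtps1 had 95.3%, 39.7%, 63.9% and 83.0% in the same order. The proteases were thus back above 80% within 20 min, while Xbp1 stayed below 40%. After DTT itself, both proteases, Atf6b (42.2%) and Eif2ak3 (30.2%) stood below Xbp1.

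**Figure D4:**
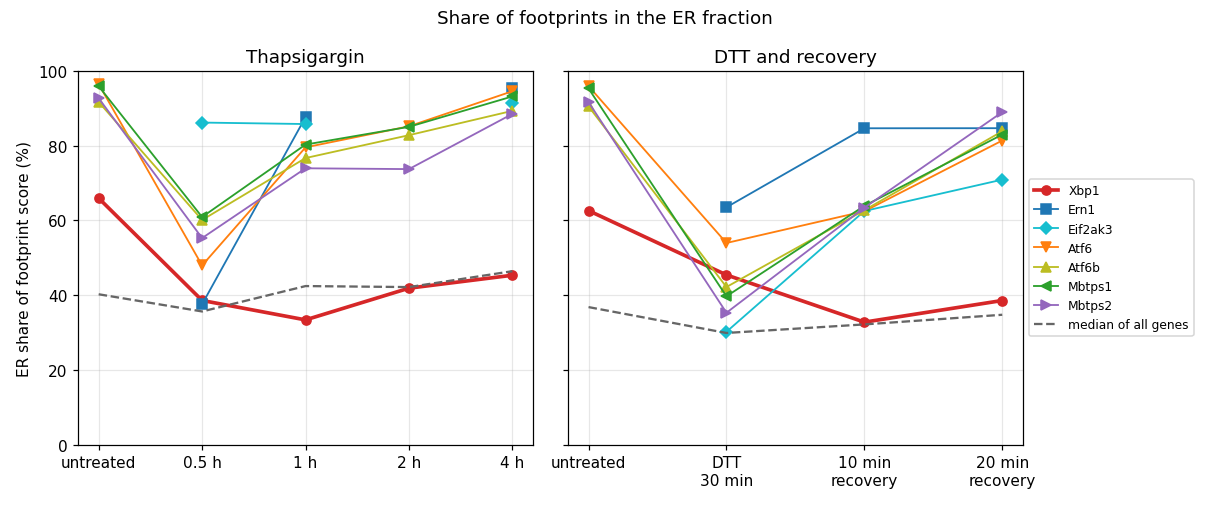
ER share of the footprint score (percent of the ER and cytosol sum) for each gene with values in both fractions, under Tg (left) and under DTT with recovery (right), and the median of all genes (dashed). Xbp1 (red) is at 45.3% at 4 h of Tg, against 65.9% in untreated cells, while at 4 h the other genes stand between 88.5 and 95.4%.

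Few members had mRNA scores, so a difference in footprints could seldom be set beside its mRNA. Of the 10 Tg mRNA columns, 10 held a value for Mbtps2, 8 for Mbtps1, 5 for Atf6, 4 for Xbp1, 3 for Eif2ak3 and 0 for Ern1 and Atf6b. Across all genes the mRNA columns held between 3596 and 5357 values and the footprint columns between 9205 and 12676. Xbp1 mRNA had values only at 2 and 4 h of Tg, at 21.9 and 19.8 in the ER and 25.3 and 32.6 in the cytosol. No difference from untreated cells could be computed for it. Its ribosome density, the authors' ratio of translation to mRNA, was 2.89 at 2 h and 4.05 at 4 h in the ER, and 3.94 and 2.97 in the cytosol.

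Atf6 mRNA in the ER scored 10.0 in untreated cells and 5.87, 7.77, 9.21 and 13.4 after 0.5, 1, 2 and 4 h of Tg. Its ER ribosome density was 1.93 in untreated cells and 2.22, 2.19, 1.72 and 3.08 at those times. At 4 h the mRNA difference was 0.39 in log2 and the density difference 0.68, both within 2-fold, where the footprint difference was 1.27. The density difference exceeded that of 89.2% of 3660 genes, and the mRNA difference that of 62.6% of 3858. From 2 to 4 h the density of Atf6 was 0.84 higher, above 94.8% of 3760 genes. None of the 3 members with a value in both groups (Atf6, Mbtps1 and Mbtps2) was over 2-fold in ER mRNA at 0.5 h (12.8% of all genes) or at 4 h (9.33%).

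Mbtps1 mRNA in the ER scored 14.5 in untreated cells and 9.41, 11.8, 16.6 and 16.7 after 0.5, 1, 2 and 4 h of Tg. Its ER density was 0.743 in untreated cells and 0.815, 0.677, 0.470 and 0.441 at those times. Its density was thus lowest at 2 and 4 h, when its mRNA score was highest, and the 4 h density difference of -0.75 was below that of all but 18.4% of genes. Mbtps2 had the lowest density of the members with a value. In untreated cells it was 0.0933 in the ER, above that of only 5.46% of 4618 genes, and 0.0068 in the cytosol, above that of 0.095% of 4212. Its mRNA scored 130 in untreated ER and 122, 99.9, 127 and 135 after 0.5, 1, 2 and 4 h of Tg. In the cytosol it scored 131 in untreated cells and 220, 220, 222 and 231 at those times. The cytosol mRNA was thus higher than in untreated cells from 0.5 h on, by 0.74 to 0.81 in log2, short of 2-fold. In untreated cells 49.9% of the Mbtps2 mRNA score lay in the ER, against 92.7% of its footprint score. What the low density of Mbtps2 reflects was not tested.

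Eif2ak3 mRNA had ER values at 0.5, 1 and 4 h of Tg, at 2.95, 3.28 and 10.1, with densities of 1.16, 0.929 and 0.392. With no untreated value, these have no baseline. In the DTT table, Xbp1 mRNA had values only in recovery, at 22.8 in the ER after 10 min and at 33.2 and 13.7 in the cytosol after 10 and 20 min. Mbtps1 density in the cytosol was 0.188 in untreated cells, 2.01 after DTT, and 0.762 and 0.310 after 10 and 20 min of recovery. Mbtps2 density there was 0.0068 in untreated cells, 0.0558 after DTT, and 0.0284 and 0.0063 in recovery. Both were highest after DTT and lower in recovery, as their cytosol footprints were. Mbtps2 mRNA in the ER scored 119 in untreated cells, 68.6 after DTT, and 51.6 and 90.1 in recovery. At 10 min of recovery it was 1.19 lower in log2 than in untreated cells, and only 1.48% of 3175 genes had a lower difference. Deposited densities of the members differed from the plain ratio of the 2 scores by factors between 0.666 and 1.5 over 48 values. Most of these factors lay near 1, so density is largely a ratio of the same scores and is no independent evidence beside them.

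**Figure D5:**
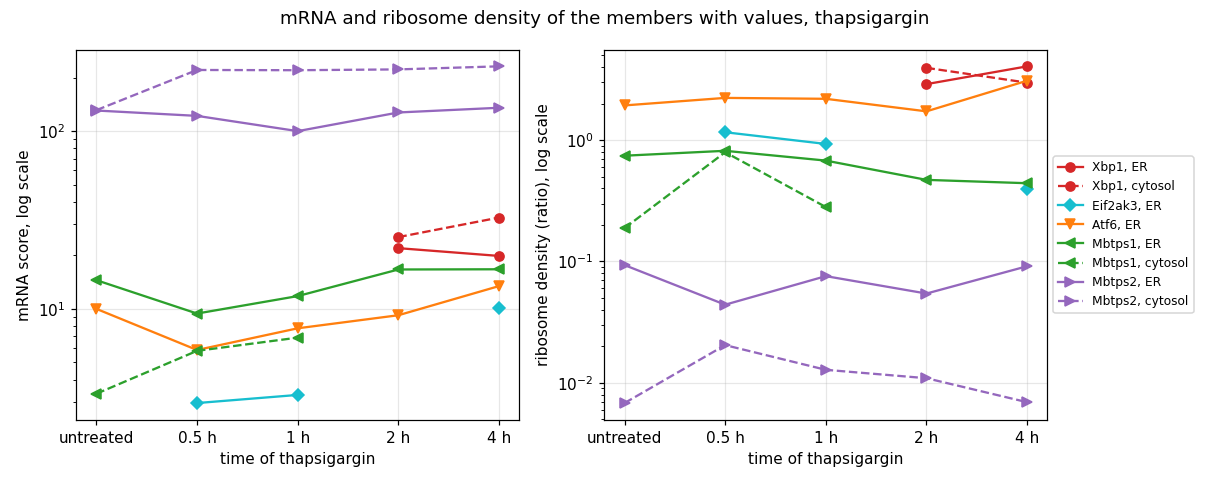
mRNA score (left) and ribosome density (right), both on log scales, of the 5 members with any value, in untreated cells and after 0.5, 1, 2 and 4 h of Tg, in the ER (solid) and the cytosol (dashed). Atf6 density in the ER is highest at 4 h (3.08), and Mbtps2 mRNA scores lie between 99.9 and 231 beside an ER density of at most 0.0933.

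Genes downstream of the 3 sensors were read in summed footprints. At 4 h of Tg the median of all genes stood at 0.06, with 4.01% of them over 2-fold higher and 2.29% lower. Of 20 XBP1 target genes, 17 had a value, 3 were over 2-fold higher and 0 lower, with a median of 0.63. The other 3 had no untreated sum. Of these, Dnajb9, an ER co-chaperone, scored 288 in the ER after 4 h of Tg against 33.9 in untreated cells, and Syvn1, a ubiquitin ligase of the ER, scored 35.1 against 11.6. Derl3 had no sum in any Tg group. The 3 over 2-fold were Dnajc3 (1.34), a co-chaperone that inhibits PERK, Sel1l (1.23), which works in the disposal of misfolded ER proteins, and Serp1 (1.36), a protein of the translocation channel. At 2 h, when Xbp1 itself already stood at 2.26, the list's median was -0.05, with 0 higher and 1 lower. Of 10 ATF6 target genes, 6 were over 2-fold higher at 4 h, with a median of 1.37. Among them were Hspa5 (2.41), the ER chaperone BiP, Herpud1 (3.54), which serves ER-associated degradation, Manf (2.04), a secreted survival factor, and Hsp90b1 (1.04), an ER chaperone. Hspa5 scored 3817 after 4 h of Tg against 719 in untreated cells. The ATF6 target list had medians of -0.26, 0.14 and 0.25 at 0.5, 1 and 2 h. Hyou1, an ER chaperone in both lists, stood at 0.84 at 4 h.

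Of the 3 downstream lists, the PERK arm had the most genes over 2-fold at the earliest time. Of its 12 genes, 4 were over 2-fold higher at 0.5 h, 5 at 1 h, 8 at 2 h and 8 at 4 h, with medians of 0.70, 0.96, 1.74 and 2.16. Of all genes, 6.49, 5.84, 6.66 and 4.01% were over 2-fold higher at those times. Atf4, the factor translated when eIF2 alpha is phosphorylated, stood at 2.96 at 0.5 h and 3.37 at 4 h, and Ddit3, which encodes CHOP, at 3.19 and 4.59. Atf3, a stress-induced transcription factor, stood at 3.04 and Nupr1, a stress-induced nuclear protein, at 1.73 at 4 h.

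The lists of partners had 0 or 1 gene over 2-fold at 4 h, when most of all genes were within 2-fold too. Of 11 listed partners and effectors of IRE1, 10 were in the table (Rtcb was not found by that symbol), and none was over 2-fold at 4 h, with a median of -0.01. Named by their mean scores, Tmbim6, an ER membrane protein that binds IRE1, stood at -0.40 and Usp14, a deubiquitinase, at 0.28. None of the 11 other eIF2 kinases and eIF2 or eIF2B subunits was over 2-fold, with a median of 0.21, where Eif2s1, the alpha subunit, stood at 0.21 and Eif2s2, the beta subunit, at 0.85. At earlier times 1 of these was past the fold, Eif2ak2, the kinase PKR, at -1.10 at 0.5 h and -1.09 at 1 h. None of 10 subunits of COPII, the coat that carries Atf6 out of the ER, was over 2-fold, with Sar1a at 0.45 and Sec13 at 0.24. Of 8 site-1 and site-2 protease substrates and escort genes with a value (of 11), Creb3l2, a membrane-bound transcription factor, was higher at 1.33 and none was lower. At earlier times Gnptab, a subunit of a Golgi enzyme, stood at 1.43 (0.5 h) and 1.73 (1 h), Srebf2, a factor of cholesterol synthesis, at -1.26 (1 h) and Scap, its escort, at -1.17 (2 h). Of 6 genes with a value (of 8) known as targets of IRE1-dependent mRNA decay, 2 were over 2-fold lower, Bloc1s1 at -1.16 and Sparc at -1.23, and the median was -0.65. Sparc, a secreted matrix protein, scored 361 after 4 h of Tg against 850 in untreated cells, and Bloc1s1, a subunit of a complex that serves lysosome-related organelles, scored 45.7 against 104. The decay targets had medians of -0.64, -0.44 and -0.79 at 0.5, 1 and 2 h, against 0.03, 0.01 and 0.07 over all genes. At each of those times 1 of them was over 2-fold lower (1.87, 3.31 and 2.82% of all genes). It was Pdgfrb, a growth factor receptor, at -1.09 and -1.23, then Sparc at -1.44. Whether IRE1 had a part in these differences was not tested.

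After 30 min of DTT, when 16.5% of all genes were over 2-fold higher in the sum and the median gene stood at 0.20, 5 of 11 PERK arm genes with a value were higher, with a median of 0.75. The ATF6 target list had 1 of 10 higher and 1 lower, and the XBP1 target list 2 of 17 higher and 1 lower, with medians of 0.15 and 0.07. Between 20 min of recovery and the end of DTT, the ATF6 target median was 0.50, with 1 of 10 higher, against a median of -0.04 and 1.30% higher over all genes.

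Over the 10 Tg footprint columns, each centred on its median gene, the genes most like Xbp1 among 4661 compared were Tslp (Pearson r = 0.92), a cytokine, Nbr1 (0.92), an autophagy receptor, Ddx24 (0.91), an RNA helicase, Atf3 (0.91) and Zc3h8 (0.89), a zinc finger protein. Tslp summed to 517 after 4 h of Tg against 113 in untreated cells, with an ER share of 60.6% against 81.2%. Atf3 summed to 136 against 15.7, Zc3h8 to 47.7 against 13.5, Ddx24 to 141 against 74.8 and Nbr1 to 57.8 against 30.3 in the same groups. Their ER shares at 4 h and in untreated cells were 41.9% and 35.5% for Atf3, 41.8% and 43.7% for Zc3h8, 50.6% and 50.9% for Ddx24, and 54.1% and 53.1% for Nbr1. Atf6 was most like Hspa5 (0.99), which is also in the ATF6 target list. Atf6b and Mbtps1 were both most like Msln, a secreted and membrane-anchored protein, and Mbtps2 was most like Ppap2a, a membrane phosphatase. These correlations describe 10 columns that share libraries and the split into fractions, and the ER and cytosol split weighs on each of them.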

How the data were processed

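Per the labels, footprints came from nuclease digestion, pelleted ribosomes and gel purification, and mRNA from libraries depleted of ribosomal RNA. The submitters' processing notes name Bowtie, with no version, and a build not given in the sources used here was the reference. For the 12 DTT samples the labels leave the assay out, and it was taken from the table's headers. The authors deposited 2 tables of 22417 genes, each with 1 pooled score per gene and group for translation and for mRNA, on a scale that the headers do not state. The deposited ribosome density is a ratio. A further deposited column of another kind marks genes TRUE or FALSE with no header, TRUE for 4 of the 7 members, and was not used. What blanks stand for is not stated. No counts were given, so the depth is unknown and only pooled values could be described.

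Differences used log2(score + 1), or the log2 ratio for densities, over genes with a value in both columns. The planned design foresaw no test for pooled values, and none was run. The 7 members and the gene lists were chosen with earlier results of these data known, and no list's count is independent support. All members are named. From each list up to 4 genes over 2-fold in the sum at 4 h of Tg were named by highest mean level, or the 2 with the highest mean score where none was. Likeness named 5 genes for Xbp1 and 1 for each other member complete in all 10 columns, among genes above the median level. Hyou1, Rtcb, Dnajb9, Syvn1, Derl3, Eif2ak2, Gnptab, Srebf2, Scap, Pdgfrb and the marker genes named singly, S100a4 among them, were chosen after their values were seen. Alternatives were a pseudocount of 0.1, centring on the median gene, the mean of both fractions, genes above the median level, and blanks taken as 0. Python 3.11.15, pandas 2.3.3, numpy 2.4.6 and matplotlib 3.10.9 were used, and the scripts were tested on simulated data.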

Additional observations from a re-analysis of the deposited data

How the results depend on the processing

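No difference over 2-fold turned its direction under the alternatives run. Xbp1 summed footprints at 4 h of Tg against untreated cells stayed between 2.30 and 2.39 in log2, and its ER difference between 1.68 and 1.85. Xbp1 in the ER against the cytosol of untreated cells was 0.90, short of 2-fold, and 1.35 when centred on the median of all genes, which puts it past 2-fold. The count of members over 2-fold higher in the cytosol at 0.5 h of Tg was 5, with 4 after centring and 6 with blanks taken as 0. The count higher in the ER of untreated cells was 4, with 5 after centring and 6 with blanks as 0. Of 159 single differences, centring kept 127 within 1.5 times and on their side of 2-fold, ended 5 calls and added 10. A pseudocount of 0.1 kept 125, ended 0 and added 6, and the mean of both fractions kept 20 of 30, ended 1 and added 6. Over genes above the median level, 25 of 28 shares of all genes stayed within 1.5 times, and the other 3, all of ER over cytosol, were 0.449% at 0.5 h of Tg, 8.29% at 1 h and 0.577% after DTT. No paired analysis was possible because each table holds 1 pooled value per gene and group, and for the same reason no replicate could be left out. Xbp1 mRNA and density at 4 h could not be set against untreated cells, where both are blank.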
